A study of Mus musculus with 12 samples.

Results

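The genes described here are 10 genes of cAMP signalling to the nucleus: the salt-inducible kinases Sik1, Sik2 and Sik3, the transcription factors Crem and Creb1, the CREB coactivators Crtc1, Crtc2 and Crtc3, and the cAMP phosphodiesterases Pde4b and Pde4d. They were picked by symbol, as the rows of the count table whose Ensembl identifier carries that symbol, and all 10 were found among the 43432 rows. All 10 passed the filter on low counts and were tested among 14486 genes. Counts come from RNA sequencing of gastrocnemius, a calf muscle, of male mice in 4 groups of 3 libraries. Sedentary WT and exercised WT mice were fl/fl, that is floxed with the gene intact, and sedentary MKO and exercised MKO mice were cFeimin MKO, in which cellular Feimin was knocked out. The exercised groups completed a 90 min run at 60% of maximal speed, and sedentary mice had not run. The sources used here do not give the Cre driver of the MKO, the ages, or the time from the end of the run to sampling. They also do not say whether the libraries came from separate cages or days, so the p-values reflect the spread among the 12 libraries alone, which may be technical.

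When a hormone or transmitter raises cAMP, protein kinase A (PKA) is released and phosphorylates CREB. PKA also phosphorylates the SIK kinases and so blocks them. Active SIKs phosphorylate the CRTC coactivators and hold them in the cytoplasm, and blocked SIKs let CRTCs enter the nucleus and join CREB. SIKs need phosphorylation by the kinase LKB1 (gene Stk11) to be active. Among the genes that CREB switches on are several brakes on the same pathway: Sik1, the short CREM repressor ICER made from a promoter inside Crem, and PDE4 enzymes, which break down cAMP. In skeletal muscle SIK1 also phosphorylates class IIa histone deacetylases, which otherwise hold back MEF2 factors.

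Libraries were of nearly equal size, with 14324010 to 14563501 counts each, and 3 counts corresponded to 0.181 to 0.222 CPM (the count relative to library size, with TMM factors). All 10 muscle fibre markers were detected and together held 110231 to 159013 CPM per library. The targeted gene, taken to be B230219D22Rik from general knowledge, stood at 21.6 to 29.9 CPM in the 6 WT libraries and at 3.52 to 6.13 CPM in the 6 MKO libraries. On the 1st principal component of all genes, exercised MKO replicates 1 and 4 (12.3 and 12.4) lay nearer to the sedentary libraries (-30.5 to -21.1) than exercised MKO replicate 2 (28.4) and the exercised WT libraries (33.0 to 39.6). Sedentary MKO replicate 3 had the highest TMM factor, 1.15 against 0.928 to 1.04 elsewhere.

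In muscle after running, 3 of the 10 genes rose and none fell, in WT and in MKO alike: Sik1, Crem and Pde4d. Sik1 rose 19.4-fold in WT and 11.96-fold in MKO, Crem rose 4.66-fold and 3.37-fold, and Pde4d rose 2.15-fold and 2.31-fold. Over all genes tested 8.24% passed in WT (4.14% higher and 4.10% lower) and 4.05% in MKO (2.29% higher and 1.75% lower), at a Benjamini-Hochberg adjusted p under 0.05 in edgeR's quasi-likelihood test. The other SIKs, Creb1, the 3 Crtc genes and Pde4b did not pass in either genotype. The median log2 fold change of the 10 was 0.19 in WT and 0.03 in MKO, against -0.01 and 0.00 over all genes. DESeq2 called the same number of the 10 in both genotypes, and limma-voom called 2 in WT and 3 in MKO.

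**Figure D1:**
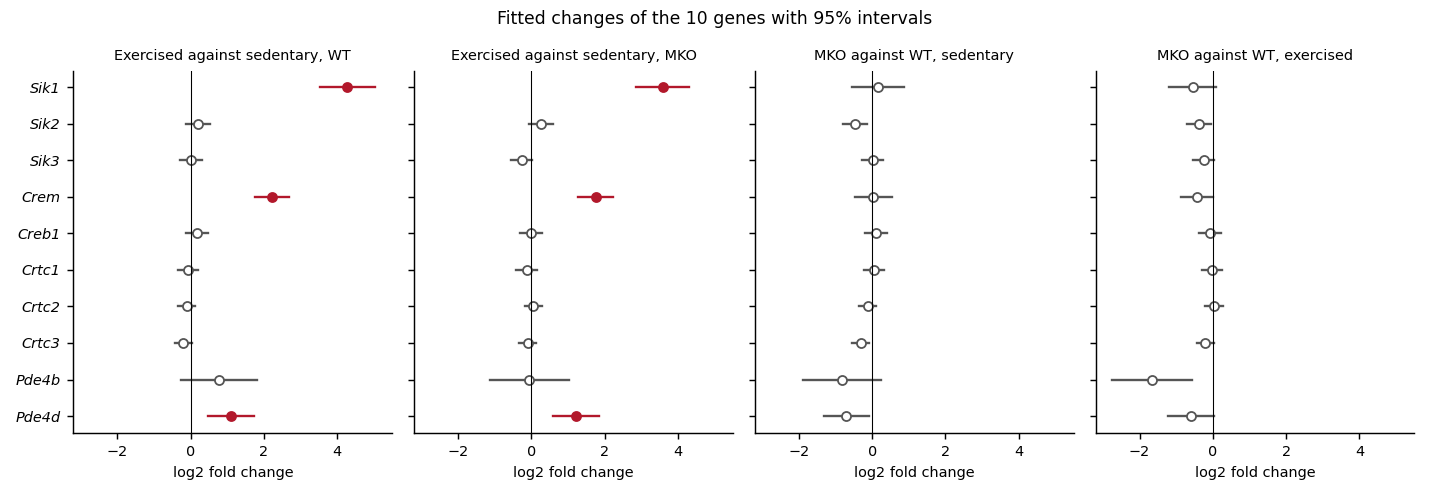
Fitted log2 fold changes (x axis) of the 10 genes (y axis) in the 4 comparisons, with 95% intervals as lines; filled red points passed at an adjusted p under 0.05 and open points did not. Sik1, Crem and Pde4d lie to the right of 0 in both exercise panels, and no gene passed in either genotype panel.

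Sik1 (ENSMUSG00000024042; chromosome 17, 31844250 to 31855804, minus strand, GRCm38.p6) encodes the kinase that is itself a CREB target. It stood at 17.2, 6.61 and 7.55 CPM in sedentary WT replicates 1, 3 and 4, and at 194.5, 201.1 and 212.8 CPM in exercised WT replicates 3, 4 and 5. In MKO it stood at 15.1, 10.4 and 9.25 CPM in sedentary replicates 1, 2 and 3, and at 126.8, 175.9 and 113.6 CPM in exercised replicates 1, 2 and 4. Every exercised library lay above every sedentary one, and replicate 1 was the highest of each sedentary group. The log2 fold change was 4.28 ± 0.34 (SE) in WT (edgeR, adjusted p = 3e-05). In MKO it was 3.58 ± 0.33 (edgeR, adjusted p = 0.000172). The 3 exercised MKO libraries all lay below the 3 exercised WT libraries, with group means of 138.7 ± 32.8 (SD, n = 3) and 202.8 ± 9.27 CPM. The difference between the exercise responses, MKO minus WT, was -0.70 ± 0.44 on the log2 scale, with a 95% interval of -1.65 to 0.26, and did not pass (edgeR, adjusted p = 0.983).

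Crem (ENSMUSG00000063889; chromosome 18, 3266048 to 3337748, minus strand) encodes activators and repressors from many promoters and splice forms, and 39 transcripts are annotated. The counts are per gene, so ICER and full-length CREM cannot be told apart here. Crem stood at 4.67, 6.41 and 5.01 CPM in sedentary WT and at 22.9, 21.4 and 30.8 CPM in exercised WT. In MKO it stood at 6.13, 4.95 and 5.44 CPM at rest and at 13.4, 23.4 and 19.0 CPM after running. The sedentary and exercised libraries did not overlap in either genotype, whereas exercised MKO replicate 2 lay within the exercised WT range. The log2 fold change was 2.22 ± 0.22 in WT (edgeR, adjusted p = 0.000102). The value in MKO was 1.75 ± 0.21 (edgeR, adjusted p = 0.00108). The responses differed by -0.47 ± 0.30 (95% interval -1.13 to 0.19), which did not pass (edgeR, adjusted p = 0.983). Crem shares 472 exonic bases with Gm6225 on the opposite strand, which stood at 0.137 to 0.667 CPM. Whether reads were counted by strand is unknown here, so the 2 genes' reads cannot be told apart.

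Pde4d (ENSMUSG00000021699; chromosome 13, 108449948 to 109953461, plus strand) encodes a cAMP-specific phosphodiesterase with many isoforms. It stood at 78.1, 59.6 and 69.2 CPM in sedentary WT and at 119.1, 123.1 and 202.1 CPM in exercised WT. In MKO it stood at 22.5, 51.9 and 52.9 CPM at rest and at 97.5, 103.3 and 93.7 CPM after running. Exercised libraries lay above sedentary ones in both genotypes, and the libraries farthest from the others of their group were exercised WT replicate 5 and sedentary MKO replicate 1. The latter also stood apart in its Schwann cell markers, which summed to 385.7 CPM against 90.8 and 81.2 CPM in sedentary MKO replicates 2 and 3; their part in its Pde4d and Pde4b levels was not tested. The log2 fold change was 1.10 ± 0.29 in WT (edgeR, adjusted p = 0.0337). MKO muscle gave 1.21 ± 0.29 (edgeR, adjusted p = 0.0385). The responses differed by 0.11 ± 0.40, with a 95% interval of -0.77 to 0.98. The call was close to the threshold: it was kept in 11 of 21 alternatives in WT (adjusted p = 0.00185 to 0.293) and in 8 of 21 in MKO (adjusted p = 0.000795 to 0.121). In WT it was lost without sedentary WT replicate 1, 3 or 4 (adjusted p = 0.0647, 0.130 and 0.0924), exercised WT replicate 5 (0.130) or exercised MKO replicate 1 (0.0511). In MKO it was lost without sedentary WT replicate 1 or 4 (adjusted p = 0.0503 and 0.0601), sedentary MKO replicate 1 or 2 (0.0529 and 0.0628), exercised WT replicate 3 or 4 (the higher of the 2 was 0.0517) or exercised MKO replicate 1, 2 or 4 (0.0854, 0.121 and 0.0846).

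Pde4b (ENSMUSG00000028525; chromosome 4, 102087543 to 102607259, plus strand), the other PDE4 gene of the set, varied widely between libraries at rest. It stood at 61.8, 26.7 and 65.7 CPM in sedentary WT replicates 1, 3 and 4, and at 58.7, 13.7 and 14.64 CPM in sedentary MKO replicates 1, 2 and 3. After running it stood at 85.2, 75.7 and 102.7 CPM in WT, and at 26.5, 29.9 and 27.0 CPM in MKO. The exercised WT libraries all lay above the sedentary WT libraries, and the exercised MKO libraries lay inside the sedentary MKO range. The log2 fold change with running was 0.77 ± 0.48 in WT (edgeR, adjusted p = 0.405). In MKO it was -0.06 ± 0.49 (edgeR, adjusted p = 0.983), and neither passed. In MKO it was 0.97 without sedentary MKO replicate 1. The responses differed by -0.83 ± 0.69 (95% interval -2.33 to 0.66), and by 0.20 without that library.

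**Figure D2:**
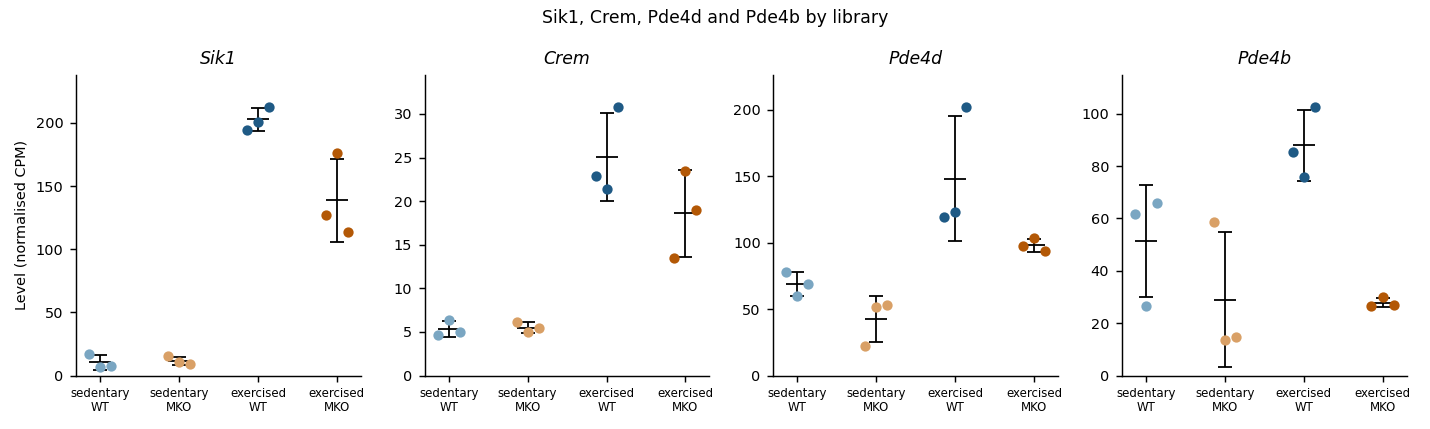
Levels of Sik1, Crem, Pde4d and Pde4b (y axis, normalised CPM) in each library (points) of the 4 groups (x axis), with group means and SD as bars. Sik1, Crem and Pde4d are higher after running in both genotypes, and Pde4b is spread widely at rest and separates the exercised WT libraries (75.7 to 102.7 CPM) from the exercised MKO libraries (26.5 to 29.9 CPM).

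Markers of several other cell types were lower after the run. With running, 4.10% of all genes fell and 4.14% rose in WT, and 1.75% fell and 2.29% rose in MKO (edgeR). An unadjusted p under 0.05 in edgeR was reached by 21.3% of all genes in WT and 15.1% in MKO. Of 8 fibro-adipogenic progenitor markers 4 fell in WT and 4 in MKO, and their summed level was 486.3 to 612.9 CPM in sedentary WT against 293.9 to 320.6 in exercised WT, and 648.1 to 655.8 in sedentary MKO against 314.3 to 440.4 in exercised MKO. Of 9 macrophage markers 2 fell in WT and 1 in MKO, with summed levels of 74.7 to 107.5 against 47.8 to 59.0 CPM in WT and 116.2 to 160.3 against 62.7 to 149.1 CPM in MKO. Of 7 smooth muscle cell and pericyte markers 3 fell in WT and 2 in MKO, and the other log2 fold changes were negative too. All 6 red blood cell markers had negative log2 fold changes (median -0.91 in WT and -1.45 in MKO); none passed in edgeR, and 3 in WT and 5 in MKO had an unadjusted p under 0.05. Of 7 endothelial markers 1 rose and 1 fell in each genotype. No Schwann cell marker of 8 and no adipocyte marker of 5 tested passed in edgeR; at an unadjusted p under 0.05 there were 0 Schwann cell markers in either genotype, and 1 adipocyte marker in WT and 2 in MKO. None of the 10 fibre markers passed in edgeR in either genotype, and 2 of 10 in WT and 0 of 10 in MKO had an unadjusted p under 0.05; all 10 had a positive log2 fold change in both (median 0.19 and 0.21). The part of these shifts in the changes of Sik1, Crem and Pde4d was not tested. In bulk muscle, fewer cells of a type and less RNA per cell cannot be told apart.

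The remaining kinases showed no called change with running. Sik3 (ENSMUSG00000034135; chromosome 9, 46012820 to 46224194, plus strand) stood at 30.7 ± 3.09 CPM in sedentary WT and 30.7 ± 5.53 CPM in exercised WT (SD, n = 3), with a log2 fold change of 0.00 and a 95% interval of -0.29 to 0.30. In MKO it stood at 26.7 to 33.9 CPM at rest and at 24.8 to 26.4 CPM after running, and these ranges did not overlap. Its log2 fold change there was -0.27 ± 0.14 (edgeR, adjusted p = 0.398). Sik2 (ENSMUSG00000037112; chromosome 9, 50892801 to 51009073, minus strand) stood at 8.59, 6.88 and 6.997 CPM in sedentary WT and at 8.49, 7.17 and 10.1 CPM in exercised WT. In MKO it stood at 6.13, 4.75 and 5.44 CPM at rest and at 6.51, 6.22 and 6.97 CPM after running. With running its log2 fold change was 0.20 ± 0.15 in WT (95% interval -0.12 to 0.52) and 0.27 ± 0.15 in MKO (-0.06 to 0.60). Sik2 shares 1429 of its 9539 exonic bases with Ppp2r1b on the opposite strand, which stood at 2.81 to 7.23 CPM.

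The factor CREB1 and its coactivators held a narrow range. Creb1 (ENSMUSG00000025958; chromosome 1, 64532645 to 64604548, plus strand) stood between 7.70 and 11.6 CPM in all 12 libraries, with a log2 fold change with running of 0.18 in WT (95% interval -0.13 to 0.48) and 0.00 in MKO (-0.31 to 0.30). Crtc1 (ENSMUSG00000003575; chromosome 8, 70382355 to 70439579, minus strand), the family member best known from brain, stood between 9.56 and 13.5 CPM, with -0.07 in WT (-0.34 to 0.21) and -0.13 in MKO (-0.41 to 0.14). Crtc2 (ENSMUSG00000027936; chromosome 3, 90254163 to 90264125, plus strand), known for switching on liver gluconeogenesis, stood between 13.9 and 18.4 CPM, with -0.10 in WT (-0.34 to 0.13) and 0.05 in MKO (-0.18 to 0.29). Crtc3 (ENSMUSG00000030527; chromosome 7, 80586627 to 80688877, minus strand), known from adipose tissue, stood between 8.52 and 13.2 CPM, with -0.20 in WT (-0.43 to 0.03) and -0.10 in MKO (-0.33 to 0.13). Its exercised WT libraries (10.3 to 11.2 CPM) lay just below its sedentary WT libraries (11.3 to 13.2 CPM). In WT 5 of the 10 genes had sedentary and exercised libraries that did not overlap (4 higher, 1 lower), and 27.3% of all genes did (12.5% higher, 14.8% lower). In MKO it was also 5 of 10 (4 higher, 1 lower), against 21.7% (10.1% higher, 11.6% lower).

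**Figure D3:**
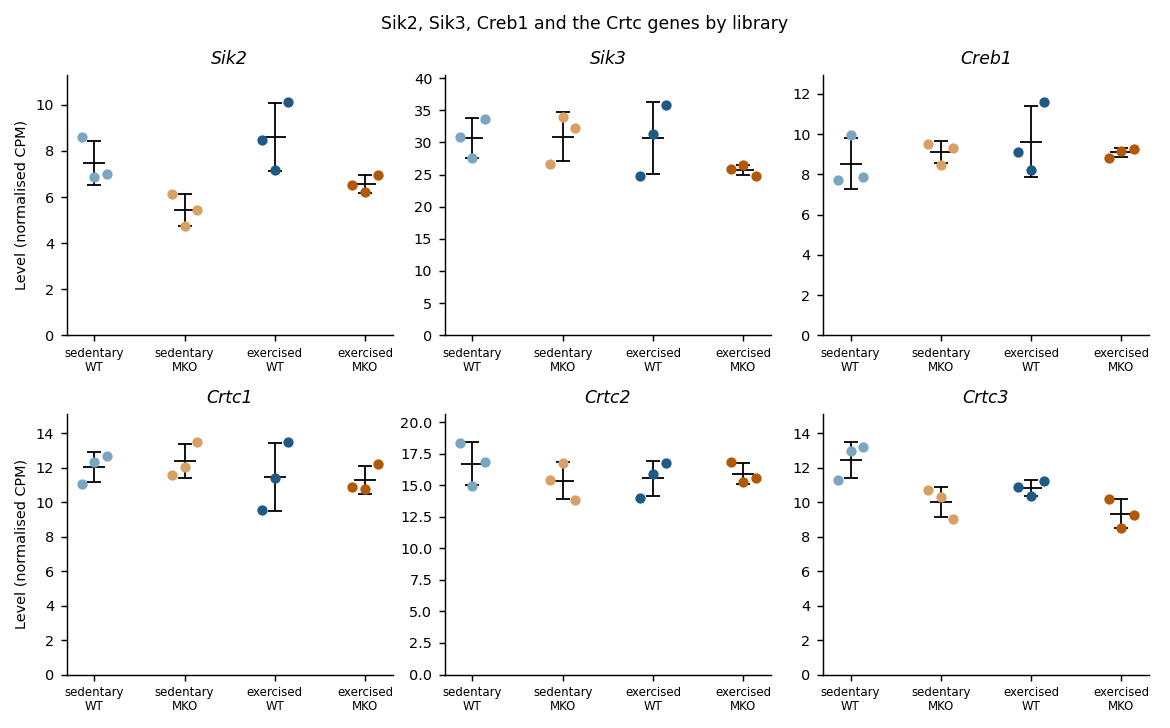
Levels of Sik2, Sik3, Creb1, Crtc1, Crtc2 and Crtc3 (y axis, normalised CPM, from 0) in each library (points) of the 4 groups (x axis), with group means and SD as bars. Creb1 stays between 7.70 and 11.6 CPM and Crtc2 between 13.9 and 18.4 CPM across all libraries, and Sik2 and Crtc3 are lower in the MKO libraries than in the WT libraries of the same state.

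Divided by exon length (CPM per kb of the union of annotated exons), the order of levels changed with running. At rest in WT the highest levels were those of Pde4d (5.74 ± 0.769 CPM per kb; SD, n = 3), Pde4b (4.87 ± 2.03) and Crtc2 (4.08 ± 0.423), each overlapping its neighbour in range. Sik3 (3.29), Sik1 (2.03) and Crtc3 (1.27) came next, then Crtc1 (1.08), Crem (0.910), Sik2 (0.785) and Creb1 (0.620), where every neighbour from Crtc1 down overlapped the next. After running in WT Sik1 led at 39.5 ± 1.81 CPM per kb, above Pde4d (12.3 ± 3.90), Pde4b (8.32 ± 1.29) and Crem (4.25 ± 0.859), with no overlap between these 4. In exercised MKO the order was Sik1 (27.0 ± 6.40), Pde4d (8.17 ± 0.404), Crtc2 (3.88), Crem (3.16), Sik3 (2.76) and Pde4b (2.63), and from Crtc2 to Pde4b each overlapped the next. The union of exons is at least as long as any annotated transcript of the gene, so a level per transcript length would not be lower.

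The make-up of the SIK transcripts shifted to Sik1 with the run. On average Sik3 was the largest part of the summed per-length SIK level at rest, with 55.1% ± 9.94 in sedentary WT and 54.2% ± 8.50 in sedentary MKO, and Sik1 made up 31.8% ± 10.8 and 36.5% ± 7.97 (SD, n = 3). In replicate 1 of each sedentary group Sik1 was slightly above Sik3, with 44.3% against 43.8% in WT and 45.6% against 44.4% in MKO. After running Sik1 made up 89.4% to 91.4% in WT and 86.7% to 90.8% in MKO. Sik3 then made up 7.50% ± 0.962 and 9.27% ± 1.54. The per-length level of Crem was 1.46 ± 0.0428 times that of Creb1 in sedentary WT and 1.41 ± 0.0805 times in sedentary MKO (SD, n = 3). After running it was 5.84, 6.09 and 6.21 times in WT and 3.54, 5.94 and 4.77 times in MKO replicates 1, 2 and 4. Crtc2 made up 60.1% to 67.7% of the summed CRTC level in every library, at rest and after running.

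**Figure D4:**
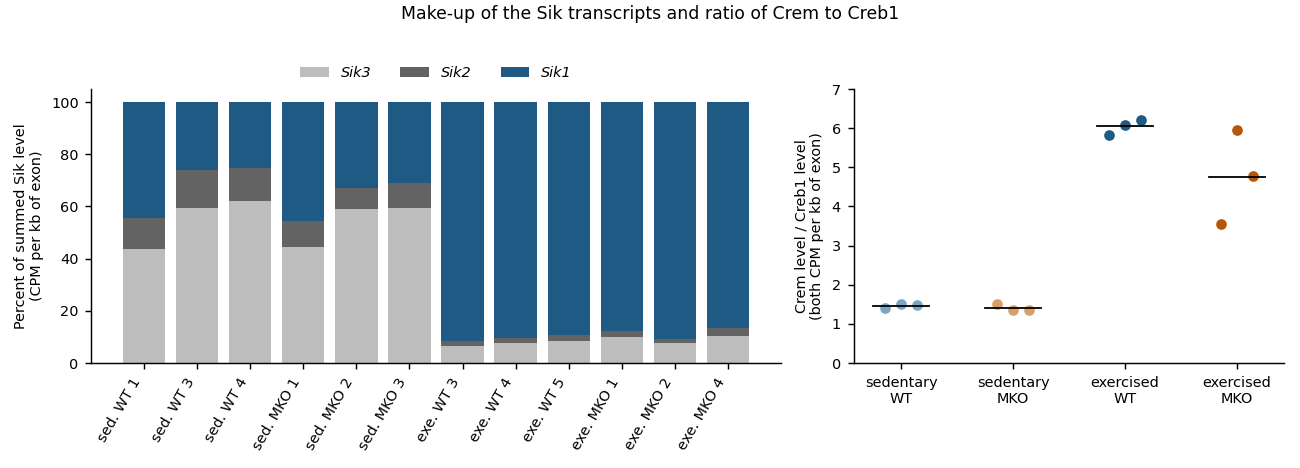
Left, share of Sik1, Sik2 and Sik3 in their summed level per kb of exon (y axis, percent) in each of the 12 libraries (x axis); right, ratio of the Crem to the Creb1 level per kb of exon (y axis) by group, with points for libraries and lines for group means. Sik1 makes up 86.7% to 91.4% of the SIK level in the exercised libraries and 25.3% to 45.6% in the sedentary ones.

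Knockout of cellular Feimin gave no called change among the 10 genes at rest. Of all genes 0.00690% passed at rest in edgeR, while DESeq2 and limma-voom called 3 genes each. Of the members 0 of 10 passed in edgeR, DESeq2 or limma-voom. An unadjusted p under 0.05 was reached by 3 of 10, against 3.76% of all genes. They were Sik2 (log2 fold change -0.46, 95% interval -0.79 to -0.13), Crtc3 (-0.32, -0.55 to -0.09) and Pde4d (-0.70, -1.33 to -0.07), each with an adjusted p = 1 in edgeR. These 3 were also the members whose sedentary MKO libraries all lay below the sedentary WT libraries, as in 4.91% of all genes; no member had them all above, as 5.43% of all genes did. Crtc3 stood at 11.3, 13.0 and 13.2 CPM in sedentary WT and at 10.7, 10.3 and 9.01 CPM in sedentary MKO. Sik1 and Crem were close between the genotypes at rest, with log2 fold changes of 0.15 (95% interval -0.56 to 0.86) and 0.04 (-0.47 to 0.54). Without sedentary WT replicate 1, the highest library of its group, the value of Sik1 was 0.71. Pde4b had -0.83 ± 0.49 (adjusted p = 1 in edgeR), which was -1.86 without sedentary MKO replicate 1.

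After running 9 of the 10 genes had a lower mean fitted level in MKO, and 0 of 10 passed in edgeR, DESeq2 or limma-voom. Of all genes 0.0345% passed in edgeR (0.0276% lower), while DESeq2 called 95 and limma-voom 6. Without exercised MKO replicate 2 edgeR called 108 of 14745 genes. The median log2 fold change of the 10 was -0.32, against 0.01 over all genes, of which 7403 of 14486 were higher in MKO. At an unadjusted p under 0.05 there were 3 of 10, Sik2, Crem and Pde4b, against 16.0% of all genes. In 5 of the 10, Sik1, Sik2, Crtc3, Pde4b and Pde4d, every exercised MKO library lay below every exercised WT library, as in 1745 of the 14486 genes tested; counted in either direction, 23.1% of all genes had groups that did not overlap. The largest difference was that of Pde4b, at 27.8 ± 1.80 CPM in exercised MKO and 87.9 ± 13.7 CPM in exercised WT, a log2 fold change of -1.66 ± 0.49 (edgeR, adjusted p = 0.205). Fitted on the 6 exercised libraries alone Pde4b passed (log2 fold change -1.66, adjusted p = 0.00586), as the only member to do so. Its adjusted p ran from 0.00586 to 0.719 over the 21 alternatives. Sik1 had -0.55 ± 0.29 (adjusted p = 0.372), Crem -0.43 ± 0.20 (0.310), Sik2 -0.39 ± 0.15 (0.250), Pde4d -0.59 ± 0.28 (0.328), Sik3 -0.26 ± 0.14 (0.372) and Crtc3 -0.21 ± 0.11 (0.350) in edgeR. Creb1, Crtc1 and Crtc2 had -0.08, -0.02 and 0.03, with 95% intervals within -0.39 and 0.27.

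Within the exercised MKO group replicate 2 was the highest of the 3 libraries for Sik1, Crem, Pde4b and Pde4d, and it was also the one nearest to WT on the 1st principal component. Replicates 1 and 4 did not keep 1 order, with replicate 1 above replicate 4 for Sik1 and Pde4d and below it for Crem and Pde4b. Macrophage markers were higher in the exercised MKO libraries: all 9 log2 fold changes were positive (median 1.14) and 0 passed in edgeR (8 at an unadjusted p under 0.05), with summed levels of 145.8, 62.7 and 149.1 CPM in replicates 1, 2 and 4 against 47.8 to 59.0 CPM in exercised WT. Schwann cell markers summed to 297.4, 62.2 and 248.3 CPM in these MKO replicates and to 83.8 to 220.7 CPM in exercised WT. Pde4b is also known from macrophages. Fibro-adipogenic progenitor markers were positive for 8 of 8 (median 0.44, 0 passed in edgeR and 5 at an unadjusted p under 0.05). Some markers leaned higher in MKO at rest too, none called in edgeR. Positive were 9 of 9 macrophage (median 0.59) and 8 of 8 fibro-adipogenic progenitor markers (0.22). So were 8 of 8 Schwann cell (0.52) and 6 of 6 red blood cell markers (0.92). Of these, 5 macrophage and 4 red blood cell markers had an unadjusted p under 0.05 in edgeR. Endothelial and smooth muscle markers were positive for 2 of 7 each, adipocyte for 2 of 5 and fibre markers for 2 of 10. The part of these cell types in the lower values, at rest or after running, was not tested.

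In edgeR no gene of the 14486 passed for a difference between the exercise responses of the genotypes (0%), and thus none of the 10. At an unadjusted p under 0.05 there were 0 of 10 in edgeR, against 3.69% of all genes. DESeq2 and limma-voom called none of the 10, and called 3 and 4 of all genes. The differences ran from -0.83 for Pde4b to 0.16 for Crtc2. Averaging the genotype difference over both states, a comparison added after the data were seen, again called 0 of 10 in edgeR, DESeq2 and limma-voom. Of all genes 0.0138% passed in edgeR, while DESeq2 called 139 and limma-voom 10. An unadjusted p under 0.05 was reached by 4 of 10, against 15.5% of all genes: Pde4b (-1.24 ± 0.35, adjusted p = 0.173), Pde4d (-0.65 ± 0.20, adjusted p = 0.196), Sik2 (-0.42 ± 0.11, adjusted p = 0.162) and Crtc3 (-0.26 ± 0.07, adjusted p = 0.177). Pde4b passed without sedentary MKO replicate 1 (-1.76, adjusted p = 0.0278; its range over 20 alternatives was 0.0278 to 0.443). The averaged comparison shares its libraries with the other genotype comparisons.

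CREB binds the palindrome TGACGTCA, the cAMP response element, and more weakly its core TGACG. Promoters of 7 of the 10 genes (not Sik1, Crem and Crtc2) were taken from RefSeq (GRCm38.p6; 250 bases before to 50 after each annotated start), and both strands were searched for both motifs; each palindrome contains the core on both strands. None of the 7 genes had the palindrome, which 2.03% of 27025 genes hold in at least 1 promoter (1.79% of 32851 promoters). Of the 7, 3 (Sik2, Sik3 and Pde4b) had the core, which 23.0% of genes hold (20.8% of promoters). The promoters of Sik2, of Sik3 and the 1st of 4 of Pde4b are given because they hold the core. The 1 window listed for Pde4d is given because it is the gene among the 7 that rose. Capitals mark each core on either strand. They lie at chr9:51009024-51009323 (minus strand), chr9:46012570-46012869 (plus), chr4:102421305-102421604 (plus) and chr13:108653927-108654226 (plus).
Sik2: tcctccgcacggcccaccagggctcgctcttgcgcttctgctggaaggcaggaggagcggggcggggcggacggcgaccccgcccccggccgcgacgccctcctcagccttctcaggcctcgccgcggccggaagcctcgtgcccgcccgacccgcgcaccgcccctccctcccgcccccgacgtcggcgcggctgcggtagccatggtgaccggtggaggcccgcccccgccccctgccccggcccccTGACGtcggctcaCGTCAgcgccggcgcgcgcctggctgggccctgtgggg
Sik3: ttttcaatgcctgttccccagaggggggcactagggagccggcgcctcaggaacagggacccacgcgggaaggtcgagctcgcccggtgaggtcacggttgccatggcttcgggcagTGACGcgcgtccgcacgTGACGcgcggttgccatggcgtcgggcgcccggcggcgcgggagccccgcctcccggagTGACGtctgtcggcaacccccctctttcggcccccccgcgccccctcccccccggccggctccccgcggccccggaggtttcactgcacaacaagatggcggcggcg
Pde4b: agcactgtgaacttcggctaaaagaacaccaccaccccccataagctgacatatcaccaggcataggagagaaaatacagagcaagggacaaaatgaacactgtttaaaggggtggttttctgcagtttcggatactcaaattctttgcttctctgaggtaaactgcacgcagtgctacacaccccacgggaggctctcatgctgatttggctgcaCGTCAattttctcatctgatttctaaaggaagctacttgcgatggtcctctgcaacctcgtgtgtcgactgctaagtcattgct
Pde4d: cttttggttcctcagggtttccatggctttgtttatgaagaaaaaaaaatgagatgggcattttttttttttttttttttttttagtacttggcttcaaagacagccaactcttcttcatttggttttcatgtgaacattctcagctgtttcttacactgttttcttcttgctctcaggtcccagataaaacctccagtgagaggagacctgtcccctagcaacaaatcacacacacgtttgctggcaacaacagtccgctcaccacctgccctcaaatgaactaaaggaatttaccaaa
The Sik2 window held 2 cores close to the start site, in opposite orientation, and the Sik3 window held 3 in the same orientation. The Pde4d window held 0. It starts at 108653927, inside a gene annotated from 108449948 with 20 transcripts. Start sites elsewhere in Pde4d were not searched. A match of letters is a description of the window and not of binding.

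Upstream of the SIKs, the LKB1 gene rose with the run. Stk11 rose by 1.06 ± 0.11 on the log2 scale in WT (edgeR, adjusted p = 0.000116), from 81.6 ± 4.97 to 170.1 ± 11.1 CPM. In MKO it rose by 0.66 ± 0.10 (edgeR, adjusted p = 0.00472), from 83.1 ± 4.31 to 130.9 ± 16.7 CPM (SD, n = 3). The exercised MKO libraries (117.01 to 149.5 CPM) lay below the exercised WT libraries (157.4 to 177.5 CPM), a difference that did not pass (-0.38 ± 0.10, adjusted p = 0.204). With Stk11, the list of the LKB1 complex and the YWHA adaptor proteins, which bind phosphorylated CRTCs, had 3 of 12 genes that rose in WT and 1 of 12 in MKO. Over all genes tested 4.14% rose in WT and 2.29% in MKO. The other calls in WT were Ywhaz (0.51 ± 0.09) and Ywhah (0.42 ± 0.09). Among 10 other AMPK-related kinases tested, Nuak2 rose by 1.14 ± 0.29 in WT and 1.61 ± 0.27 in MKO (edgeR, adjusted p = 0.0317 and 0.00640).

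The parts of the pathway that make and sense cAMP had few calls. Over all genes 8.24% passed with running in WT and 4.05% in MKO (edgeR). Of 8 adenylyl cyclase genes tested, Adcy6 fell by 0.40 as a log2 value in WT (adjusted p = 0.0483) and none passed in MKO. None of 8 genes of PKA subunits and inhibitors and none of 8 calcineurin genes passed in edgeR in either genotype. At an unadjusted p under 0.05 with running there was 1 calcineurin gene in WT, against 21.3% of all genes. Of 10 PKA anchoring proteins, Akap12, a scaffold that binds PKA near the plasma membrane, rose by 2.73 ± 0.31 in WT (adjusted p = 0.000275), from 7.72 ± 2.13 to 51.5 ± 18.2 CPM, and by 2.24 ± 0.31 in MKO (adjusted p = 0.00229). Of 11 other cAMP phosphodiesterases tested, none passed in WT and Pde4c rose in MKO (1.07 ± 0.26, adjusted p = 0.0427), with 0.90 ± 0.26 in WT (adjusted p = 0.0523). Pde2a was not analysed here.

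Other factors around CREB moved in both directions. Over all genes 4.14% rose and 4.10% fell in WT, and 2.29% rose and 1.75% fell in MKO (edgeR). Of 12 other CREB family and coactivator genes tested, Atf4 rose by 0.45 ± 0.11 in both genotypes (edgeR, adjusted p = 0.0232 in WT and 0.0399 in MKO). In WT Crebl2, Crebrf and Creb3l1 fell by 0.52, 0.83 and 0.89 as log2 values (edgeR, adjusted p = 0.00609, 0.00689 and 0.0342), and none of the 12 fell in MKO. Of 7 class IIa histone deacetylase and MEF2 genes tested, Hdac9 rose in WT (1.29 ± 0.32, edgeR, adjusted p = 0.0272) and none passed in MKO. At an unadjusted p under 0.05 there were 5 of these 7 in WT and 2 in MKO, against 21.3% and 15.1% of all genes. In edgeR none of these lists had a call between the genotypes, at rest or after running, or for the difference between the responses. Counts at an unadjusted p under 0.05 after running ran from 0 of 10 PKA anchoring proteins to 4 of 8 PKA subunits and inhibitors. Over all genes that share was 16.0%. At rest the highest was 2 of 8 adenylyl cyclase genes, against 3.76% of all genes.

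The list of known CREB target genes, chosen with earlier results of these data known, had the most calls of the pathway lists. Its count of calls is thus a description. Of 24 genes on this list 20 were tested, and 12 rose in WT and 10 in MKO, with none called lower. Of all genes 4.14% rose in WT and 2.29% in MKO. The 10 were among the 12, and the other 2 were Dusp1 and Rgs2. The median log2 fold change of all 20 tested was 1.51 in WT and 1.27 in MKO. Several of these genes respond to calcium and to MAP kinases as well as to cAMP, and the list was put together with earlier results of these data known. The orphan receptor gene Nr4a2 stood at 0.683 ± 0.138 CPM in sedentary WT and 102.2 ± 19.3 CPM in exercised WT, a rise of 7.21 ± 0.36 on the log2 scale (edgeR, adjusted p = 1.09e-06), and rose by 6.10 ± 0.34 in MKO. The AP-1 genes Fosb and Junb rose by 7.49 ± 0.61 and 6.66 ± 0.44 in WT and by 4.91 ± 0.61 and 5.17 ± 0.41 in MKO. Nr4a3 rose by 5.37 ± 0.44 in WT and 4.47 ± 0.43 in MKO. The coactivator gene Ppargc1a, a CREB target in muscle, did not pass in either genotype (edgeR, adjusted p = 0.136 in WT and 0.124 in MKO). Ppargc1a stood at 96.7 ± 67.6 CPM in exercised WT against 43.9 ± 13.9 CPM in sedentary WT, which overlapped. In MKO the exercised libraries (68.8 to 86.6 CPM) all lay above the sedentary ones (18.3 to 40.9 CPM). After running 17 of the 20 had a lower fitted level in MKO than in WT (median -0.44), and 0 passed in edgeR (3 at an unadjusted p under 0.05). Of all genes 7403 of 14486 had a higher fitted level in MKO (median 0.01), and 16.0% had an unadjusted p under 0.05 in edgeR. The promoter windows of 16 of the 21 list genes matched to RefSeq, tested or not, held the TGACG core. Those of 2, Areg and Dusp1, held the palindrome, and Areg had no count in any library. The genes were listed as known CREB targets, so these motif counts are a description. Of all 27025 genes 23.0% held the core and 2.03% the palindrome.

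**Figure D5:**
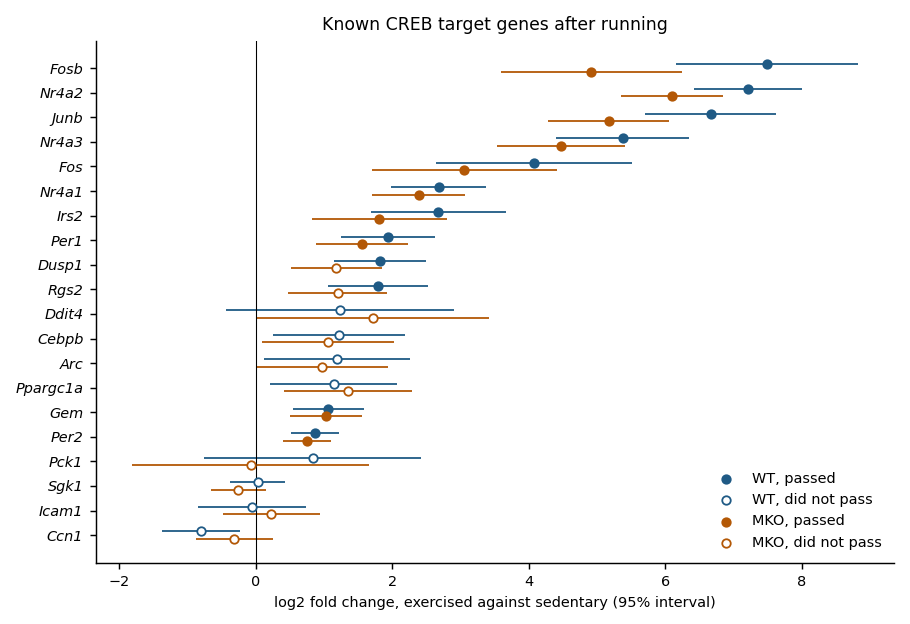
Log2 fold change of exercised against sedentary muscle (x axis, points, with 95% intervals as lines) for the 20 tested CREB target genes (y axis) in WT (blue) and MKO (orange); filled points passed at an adjusted p under 0.05. The filled points all lie to the right of 0, with 12 in WT and 10 in MKO.

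The genes whose levels were most like that of Sik1 over the 12 libraries were Btg2 (Pearson r = 0.997), Vdr (0.995), Midn (0.992), Fosl2 (0.991) and Nr4a2 (0.990). Those most like Crem were Adamts9 (r = 0.994), Rcc2 (0.994), Ccnl1 (0.989), Zfp395 (0.989) and Gnat1 (0.989). These values compare log2 CPM over libraries that fall into a sedentary and an exercised set, and they are given as a description over 14485 genes. Btg2, an antiproliferative immediate-early gene, stood at 9.88 to 23.99 CPM in the 6 sedentary libraries, at 320.5 to 375.0 CPM in exercised WT and at 164.3 to 295.4 CPM in exercised MKO. Gnat1, which encodes the transducin subunit of rod photoreceptors, had no count in any sedentary library and stood at 0.411 to 1.401 CPM in the exercised ones. Between Sik1 and Crem r was 0.957.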

How the data were processed

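Expression was measured by RNA sequencing of gastrocnemius in 12 libraries, 3 per group. The values are raw counts per Ensembl gene, as deposited by the authors. Tools listed, per the submitters' processing notes, are DESeq2 1.40.2, R 4.3, StringTie 2.1.4, SAMtools 1.9, HISAT2 2.2.1 and FastQC 0.12.1, with the build GRCm38.p6 (mm10). The sources used here do not give the counting tool, its use of strand and of reads with several matches, or the annotation version. The column misspelt for exercised MKO was taken as its replicate 4, the 1 library left. Symbols, positions and exon lengths came from GENCODE M21, which named 42548 of 43432 identifiers.

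The counts went into edgeR 4.0.16 (R 4.3.3): filterByExpr (minimum count 10, minimum total 15), TMM, and 1 quasi-likelihood fit of all 12 libraries with 1 mean per group (8 residual degrees of freedom). P-values were adjusted by Benjamini-Hochberg over the 14486 genes kept, and genes passed under 0.05. Standard errors came from the F statistic and 95% intervals from its degrees of freedom. Levels are normalised CPM, and correlations use log2 CPM with a prior count of 2. The fit was tested on simulated data. Alternatives were DESeq2 1.42.0, limma-voom (limma 3.58.1), 2 other scalings, 2 other filters (none, and 1 CPM in 3 libraries), only the groups compared, the replicate number as a block, each library left out, and the 3 libraries that stand apart left out together (sedentary MKO replicate 3, exercised WT replicate 5, exercised MKO replicate 4). By a chi-square of counts, each of the 3 set apart lay farther from its group's others than those from each other. So did sedentary WT replicate 3 (14.7 and 24.1 per degree of freedom, against 12.4), which was kept. No library duplicated another. The 10 genes and the pathway lists were chosen with earlier results of these data known. Named by rule were the 10 genes, up to 4 called genes per list and comparison by p, and the 5 genes most correlated with Sik1 and with Crem; others were named after their values were seen. The list of receptors and G proteins is not reported here. Figures used matplotlib 3.10.9 in Python 3.11.15.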

Additional observations from a re-analysis of the deposited data

How the results depend on the processing

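The calls of Sik1 and Crem with running were kept in both genotypes under all 21 alternatives, with log2 fold changes of 4.03 to 4.84 and 1.97 to 2.37 in WT and of 3.37 to 3.82 and 1.55 to 1.94 in MKO. Pde4d kept its direction and lost its call in part of them, which left 2 of the 10 genes called; the cause was not tested. After running, 1 member (Pde4b) was called between the genotypes when only the groups compared were fitted. In the average over both states the members called were 0 to 1 with each library left out. Among 54 changes tallied no called change took the opposite sign, and 18 that were not called did in at least 1 alternative. For the average over both states the tally held Sik2, Crtc3, Pde4b and Pde4d alone. Outside it, Sik1, Creb1, Crtc1 and Crtc2 kept their sign there in 19, 12, 15 and 18 of 20 alternatives. Sik3 and Crem kept it in all 20. The depth gave Sik2 71 to 137 counts a library, the base of its fitted changes.

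Opposite signs with running were those of Sik3 in WT (-0.10 with total counts as library size, -0.0101 with limma-voom, -0.12 without the 3 libraries that stand apart, and -0.12 to 0.14 with each library left out), Crtc1 in WT (-0.20 to 0.0568 with each left out), Creb1 in MKO (0.0054 with DESeq2 size factors, 0.0053 with DESeq2, 0.0003 with only the groups compared, 0.0012 without the 3, and -0.05 to 0.0311 with each left out), Crtc2 in MKO (-0.0931 with total counts, -0.0006 without the 3, and -0.0069 to 0.12 with each left out) and Pde4b in MKO (0.29 with limma-voom and -0.40 to 0.97 with each left out). Between the genotypes at rest they were those of Sik1 (-0.0942 to 0.71 with each left out), Sik3 (-0.0171 without the 3, -0.0603 to 0.11), Crem (-0.0527 to 0.18) and Crtc1 (-0.0269 without the 3, -0.0320 to 0.0846). After running they were those of Creb1 (0.0555 without the 3, -0.20 to 0.0671), Crtc1 (0.0083 with total counts, 0.0486 without the 3, -0.15 to 0.11) and Crtc2 (-0.0457 to 0.0878). For the difference between the responses they were those of Sik2 (-0.0515 to 0.20), Crtc1 (0.0754 without the 3, -0.19 to 0.0659), Pde4b (-1.17 to 0.20) and Pde4d (-0.19 to 0.40). The cause was not tested.

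Replicate numbers are shared in part between groups, but libraries with the same number did not deviate together (correlations of -0.153 to 0.0759 over 10 pairs). The numbers were therefore not used for pairing in the main fit. Whether a number marks a shared day or cage is not known here. With the replicate block 2 of the 10 genes were called with running in each genotype, and over all genes the calls numbered 602 instead of 1193 in WT and 361 instead of 586 in MKO. Opposite signs under the block were -0.15 for Sik3 and -0.0022 for Creb1 with running in WT, 0.0613, -0.0042 and 0.0049 for Creb1, Crtc2 and Pde4b in MKO, -0.0043 for Crem at rest, 0.17, 0.21 and -0.0395 for Creb1, Crtc1 and Crtc2 after running, and 0.0635 and 0.0972 for Creb1 and Crtc1 in the difference between the responses.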
